A study of Mus musculus with 6 samples.

Results

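The genes described here are 10 relatives of BCL2 that act at the mitochondrial outer membrane, followed in mouse pancreatic stellate cells (PSCs) kept with tumor organoids at 2 oxygen levels. They were taken by name, as the rows whose Ensembl identifiers GENCODE M21 assigns to Bnip3, Bnip3l, Bcl2, Bcl2l1, Mcl1, Bax, Bcl2l11, Bbc3, Pmaip1 and Bad, and are 10 of 55421 rows of mouse genes. All 10 passed the filter on low counts, as did 16207 genes in all. PSCs are fibroblast precursors of the pancreas, and mT3 is a tumor line from a mouse model of pancreatic ductal adenocarcinoma (PDAC). Primary C57BL/6 PSCs, which the methods derive from wild-type adults of both sexes and use at low passage, sat in Matrigel in a transwell insert above mT3 organoids. Normoxic cocultures (n = 3) were kept at 21% O2 and hypoxic cocultures (n = 3) at 1% O2, each for 48 h, and poly(A) RNA of the PSCs was sequenced. Both groups contained tumor organoids, so a PSC response that needs no tumor cells cannot be told from one that does. Nothing in the labels says whether replicates were separate PSC lines, and p-values measure the spread between these samples, which may be technical.

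BNIP3 and BNIP3L (also called NIX) sit in the outer mitochondrial membrane and bind LC3-type proteins on the growing autophagosome, which brings a mitochondrion to degradation (mitophagy). Both are textbook targets of the hypoxia-inducible factors (HIFs). BCL2, BCL-xL (from Bcl2l1) and MCL1 hold the pore-forming effector BAX inactive, and the BH3-only proteins BIM (Bcl2l11), PUMA (Bbc3), NOXA (Pmaip1) and BAD oppose these survival proteins. Much of this control acts on protein binding, phosphorylation and turnover, which RNA counts do not measure.

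Library totals were 25886075, 25914892 and 24749601 counts for normoxic replicates 1, 2 and 3 and 25847719, 31411871 and 31925054 for hypoxic ones, so the 2 deepest libraries were both hypoxic. A count of 3, taken as the smallest amount told from none, was worth 0.0943 to 0.122 CPM. CPM are counts scaled to a common library size, here set by the TMM method, and a limit of this kind covers counting error only. Of 11 textbook hypoxia genes, 11 rose in hypoxia, with a median log2 fold change of 1.98 and the highest for Car9 (5.13), which encodes a carbonic anhydrase. The summed level of 12 fibroblast markers was 28600 to 35900 CPM in normoxia and 30600 to 35500 CPM in hypoxia, with 2 called higher (Pdgfra and Pdpn) and 3 lower (Lum, Thy1 and Acta2). Of their defining genes, Col1a1 was at 6798 to 9633 CPM in normoxia and 7334 to 9466 CPM in hypoxia, and Pdgfrb at 507 to 654 and 418 to 521 CPM. Of the other cell types checked, the summed level of 15 immune markers was 1080 to 1910 CPM in normoxia and 552 to 998 CPM in hypoxia, with 11 called lower and 0 higher. Their defining gene Ptprc was at 8.62 to 13.6 CPM in normoxia and 5.07 to 9.73 CPM in hypoxia. The sum of 10 epithelial markers was 32.3 to 34.7 CPM in normoxia and 86.0 to 90.6 CPM in hypoxia, of which Sox9 and Krt19 made up most, and the defining gene Epcam had at most 1 count in any sample. The sum of 6 endothelial markers was low, at 10.6 to 15.7 CPM in normoxia and 14.7 to 21.1 CPM in hypoxia. Of these markers, Tek was called higher and Kdr and Cldn5 lower. The sum of 6 acinar markers, with Cpa1 at 0, was also low. It was 10.1 to 12.6 CPM in normoxia and 8.23 to 9.30 CPM in hypoxia, with 0 called. The part of these other cells in the results that follow was not tested. In bulk RNA, fewer cells of a type and less RNA per cell cannot be told apart.

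A gene was called where it changed by more than 1.5-fold with an adjusted p under 0.05 in edgeR's quasi-likelihood test over all 16207 genes. By this rule 2 of the 10 members rose in hypoxia, the mitophagy receptors Bnip3 and Bnip3l, beside 18.9% of all tested genes. No survival, effector or BH3-only member was called: 0 of 10 members fell, beside 15.3% of all genes. DESeq2 and limma-voom also called 0 lower, and 4 were lower at an unadjusted p under 0.05 in edgeR. The share that rose is close to that of all genes, so the count by itself sets the members apart in no way. By the adjusted p alone, 3 members were higher (31.8% of all genes) and 3 lower (31.0%). The samples of the 2 groups did not overlap for 7 members, of which 4 were higher (34.9% of all genes) and 3 lower (34.0%). The median log2 fold change of the members was 0.10, and that of all tested genes was -0.0040. Single members ran from 2.01 for Bnip3 to -0.56 for Bcl2.

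**Figure D1:**
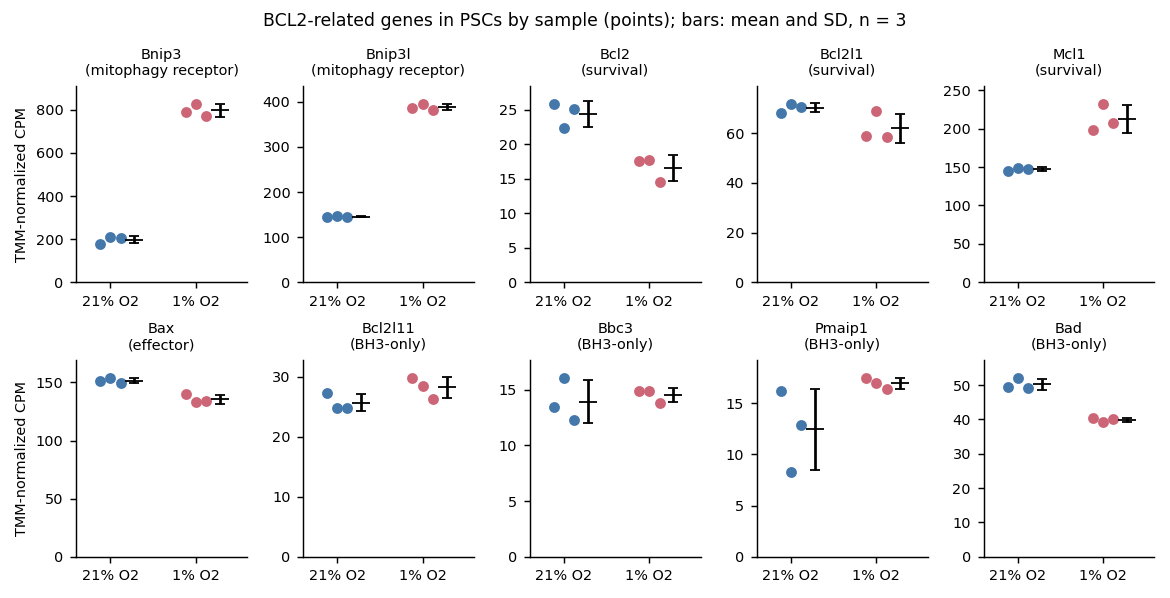
TMM-normalized CPM of the 10 members in each sample (points, each axis from 0), with the mean and SD of 3 samples per group as bars. Bnip3 and Bnip3l are the members whose hypoxic samples lie far above the normoxic ones, at 773 to 829 against 179 to 210 CPM and 381 to 396 against 144 to 147 CPM.

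The promoter sequences of 3 members are printed because they span the range of responses: Bnip3 had the highest fold change, Bbc3 did not pass the test, and Bcl2 had the lowest. Each run is the 250 bases before the RefSeq transcription start, 5′ to 3′ on the gene's strand in GRCm38.p6, at chr7:138909507-138909756 (minus strand) for Bnip3, chr7:16309333-16309582 (plus strand, 1 of 3 starts) for Bbc3 and chr1:106714291-106714540 (minus strand) for Bcl2. Capitals mark the core that HIFs bind, searched as ACGTG or GCGTG on both strands, with the palindrome CACGTG counted as 1 site.
Bnip3: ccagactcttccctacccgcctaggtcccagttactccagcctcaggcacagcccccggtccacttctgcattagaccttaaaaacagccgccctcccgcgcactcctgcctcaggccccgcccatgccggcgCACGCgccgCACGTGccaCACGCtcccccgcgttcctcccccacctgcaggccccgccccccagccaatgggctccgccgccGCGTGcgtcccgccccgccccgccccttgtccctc
Bbc3: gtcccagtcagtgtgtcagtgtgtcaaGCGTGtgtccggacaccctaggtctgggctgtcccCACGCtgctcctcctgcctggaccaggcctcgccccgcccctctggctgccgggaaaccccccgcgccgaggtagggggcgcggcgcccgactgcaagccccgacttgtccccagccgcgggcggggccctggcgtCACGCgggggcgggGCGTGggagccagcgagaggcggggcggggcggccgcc
Bcl2: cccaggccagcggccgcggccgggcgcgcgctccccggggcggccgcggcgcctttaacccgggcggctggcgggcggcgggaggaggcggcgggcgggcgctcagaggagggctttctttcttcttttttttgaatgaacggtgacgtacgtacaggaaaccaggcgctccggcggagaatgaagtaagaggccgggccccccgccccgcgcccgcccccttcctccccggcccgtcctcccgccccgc
Bnip3 held 4 such cores, at 117, 108, 99 and 35 bases before the start, of which the one at 108 is the palindrome. The printed Bbc3 promoter, chosen as the one with the most cores, also held 4, the promoters of the other Bbc3 starts held 1 and 2, and the Bcl2 promoter held 0. In windows of 250 bases before and 50 after the start, 43.8% of 32851 mouse promoters held at least 1 core and 2.64% held at least 4. The 8 members searched had 14 promoters, of which 10 held at least 1 core. By gene, 6 held a core in at least 1 promoter (Bnip3, Bbc3, Bcl2l11, Bad, Bax and Bcl2l1) and 2 held none (Bcl2 and Mcl1). A gene with several starts had several chances to hold a core. The share of all promoters is therefore no match for the count by gene, and a share by gene was not computed. Bnip3l had no entry in the promoter table and Pmaip1 was not searched. A match is a string of letters and says nothing of binding.

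Bnip3 (ENSMUSG00000078566, GRCm38 chr7:138890836-138909519, minus strand) had 179, 210 and 205 CPM in the normoxic samples and 790, 829 and 773 CPM in the hypoxic ones. Every hypoxic sample lay above every normoxic sample, and normoxic replicate 1 was the lowest of all. The log2 fold change was 2.01 (SE 0.07), or 4.03-fold, with an adjusted p of 9.52e-08. It ranked 643 from the top among the fold changes of all 16207 genes. A noncoding antisense gene, Gm45507, shares 504 bp of exon with Bnip3, and held at most 1 count in any sample.

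Bnip3l (ENSMUSG00000022051, chr14:66985239-67008877, minus strand) had 146, 147 and 144 CPM in normoxia and 387, 396 and 381 CPM in hypoxia. The spread within each group was small against the gap between them. The log2 fold change was 1.41 (SE 0.05), or 2.66-fold, with an adjusted p of 7.98e-08, and the gene ranked 1214. A processed pseudogene copy, Bnip3l-ps, had 9 to 67 counts per sample against 3550 to 12404 for Bnip3l. How RSEM divided reads between the 2 was not tested.

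The balance between the receptors moved with oxygen. Within a sample, Bnip3 exceeded Bnip3l by a log2 ratio of CPM per kb of exon of 1.06, 1.28 and 1.28 in normoxia and 1.80, 1.83 and 1.79 in hypoxia. All hypoxic ratios lay above all normoxic ones, and the mean difference was 0.60, which is 1.52-fold. The exact two-sided permutation p was 0.1, the smallest that 3 samples against 3 can give, so no ratio here can pass 0.05. Bnip3 thus rose by more than Bnip3l in these samples, by an amount that stayed between 0.53 and 0.64 when any single sample was left out.

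The genes whose pattern over the 6 samples was nearest to that of Bnip3, by Euclidean distance of centred log2 CPM, were Sik1 (0.12), Ppp1r3e (0.144), Ankrd37 (0.158), Tnfsf9 (0.169) and 5430430B14Rik (0.178). Sik1 encodes a salt-inducible kinase, Ppp1r3e a glycogen-targeting phosphatase subunit, Tnfsf9 the ligand of 4-1BB, and Ankrd37 is a known HIF target. The median distance over all genes was 2.51, and Bnip3l, at 0.756, ranked 456. A small distance mostly reflects a similar fold change, since the groups differ far more than the replicates.

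The survival members moved in different directions, and none was called. Mcl1 (chr3) had 144, 149 and 147 CPM in normoxia and 198, 232 and 207 CPM in hypoxia. The groups did not overlap, and the log2 fold change of 0.53 (SE 0.07, adjusted p = 0.000121) was under the 1.5-fold threshold. Bcl2 (chr1) had 25.9, 22.3 and 25.1 CPM in normoxia and 17.5, 17.7 and 14.5 CPM in hypoxia. All hypoxic samples were below all normoxic ones, with a log2 fold change of -0.56 (SE 0.10, adjusted p = 0.000924), just inside the threshold of 0.585 on the log2 scale. Leaving out hypoxic replicate 1, normoxic replicate 2 or hypoxic replicate 2 took Bcl2 past it, at -0.60, -0.63 and -0.62. Bcl2l1, which encodes BCL-xL, had 68.2, 71.9 and 70.5 CPM in normoxia and 59.0, 68.8 and 58.3 CPM in hypoxia. Hypoxic replicate 2 lay within the normoxic range, and the log2 fold change of -0.18 (SE 0.07) had an adjusted p of 0.0534.

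Bax, the pore-forming effector (chr7:45461697-45466898, minus strand), had 152, 154 and 149 CPM in normoxia and 140, 133 and 134 CPM in hypoxia. The groups did not overlap, but the difference was small, with a log2 fold change of -0.16 (SE 0.05, adjusted p = 0.0187). With an offset for GC content it was -0.0060 (adjusted p = 0.921; adjusted p from 0.00135 to 0.921 over 16 alternatives). Bax was below 0 in all 16, between -0.25 and -0.0060, and its adjusted p was under 0.05 in 13.

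Among the BH3-only genes, Bad was lower, Pmaip1 was higher in every hypoxic sample without passing the test, and Bcl2l11 and Bbc3 overlapped between groups. Bad, a BH3-only gene regulated by survival kinases, had 49.4, 52.1 and 49.2 CPM in normoxia and 40.3, 39.4 and 40.0 CPM in hypoxia. The groups were well apart, with a log2 fold change of -0.33 (SE 0.05, adjusted p = 0.0005). The protein-coding gene Gpr137 shares 524 bp of exon with Bad on the opposite strand and had 756 to 1317 counts per sample, and since the sources do not state a strand setting, reads of the shared stretch cannot be assigned with certainty.

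Pmaip1, which encodes the MCL1-binding protein NOXA, had 16.2, 8.31 and 12.9 CPM in normoxia and 17.5, 17.0 and 16.4 CPM in hypoxia. The normoxic samples were widely spread, with replicate 2 lowest, and the highest of them lay just under the lowest hypoxic one. The log2 fold change was 0.44 (SE 0.19, adjusted p = 0.0711). Without normoxic replicate 1 it was 0.68 and called (adjusted p = 0.00734), and leave-one-out fits ran from 0.21 to 0.68. Normoxic replicate 2 also had the highest immune marker sum, 1910 CPM. Hypoxic replicate 2 had the highest immune sum of its own group, 998 CPM, with Pmaip1 between the other hypoxic samples. A link between the 2 measures was not tested.

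Bcl2l11 had 27.3, 24.8 and 24.9 CPM in normoxia and 29.8, 28.5 and 26.4 CPM in hypoxia, a log2 fold change of 0.14 (SE 0.07, 95% interval -0.03 to 0.30, adjusted p = 0.130). Bbc3 had 13.4, 16.1 and 12.3 CPM in normoxia and 14.9, 14.8 and 13.8 CPM in hypoxia, a log2 fold change of 0.06 (SE 0.11, 95% interval -0.18 to 0.30, adjusted p = 0.655). These intervals do not contain a 1.5-fold change for either gene.

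**Figure D2:**
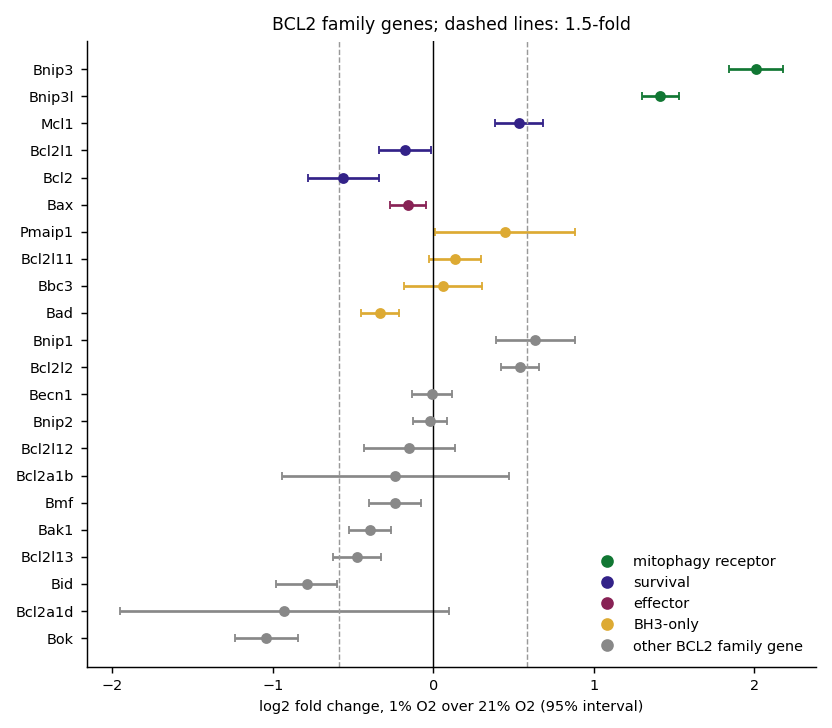
Log2 fold change in hypoxia over normoxia with its 95% interval for the 10 members, colored by role, and 12 other BCL2 family genes in grey. Only the intervals of Bnip3 and Bnip3l among the members lie wholly beyond the dashed lines at 1.5-fold, and the survival members lie on both sides of 0.

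Per kb of the union of a gene's exons, the order of the members differed between the groups. In normoxia Bax was highest, at 96.2 ± 1.49 CPM per kb (SD, n = 3), followed by Bnip3 (87.4 ± 7.44), Mcl1 (43.0 ± 0.734) and Bnip3l (37.7 ± 0.405). In hypoxia Bnip3 was highest, at 352 ± 12.6 CPM per kb, followed by Bnip3l (101 ± 1.89), Bax (86.1 ± 2.44) and Mcl1 (62.2 ± 5.23). The lower places kept 1 order in both groups: Bad, Bcl2l1, Bbc3, Pmaip1, Bcl2l11 and Bcl2, from 19.6 down to 2.67 CPM per kb in normoxia and from 15.6 down to 1.81 in hypoxia. In normoxia the samples of Pmaip1 overlapped those of its neighbours Bbc3 and Bcl2l11, so their places there are not resolved, and in hypoxia no neighbours overlapped. Some places depend on the length used. Per kb of the longest transcript, a choice made after seeing the data, Bnip3l (44.7 ± 0.479) was above Mcl1 (43.0 ± 0.734) and Bcl2l11 above Pmaip1, with overlapping samples, in normoxia. In hypoxia Bax (123 ± 3.49) then overlapped Bnip3l (119 ± 2.24), and Bad (26.0 ± 0.327) overlapped Bcl2l1 (24.2 ± 2.28), while Bax in normoxia and Bnip3 in hypoxia stayed highest.

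Summed by role, the mitophagy receptors made up 39.5 ± 1.42% of the members' CPM per kb in normoxia and 69.8 ± 0.106% in hypoxia (SD, n = 3). The shares of the survival members (19.3% and 11.9%), Bax (30.4% and 13.3%) and the BH3-only members (10.7% and 4.96%) were lower in hypoxia. Those shares fall as the receptors rise, since they share 1 total. The survival sum itself was 61.0 ± 0.961 CPM per kb in normoxia and 77.5 ± 6.52 in hypoxia, most of it from Mcl1.

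**Figure D3:**
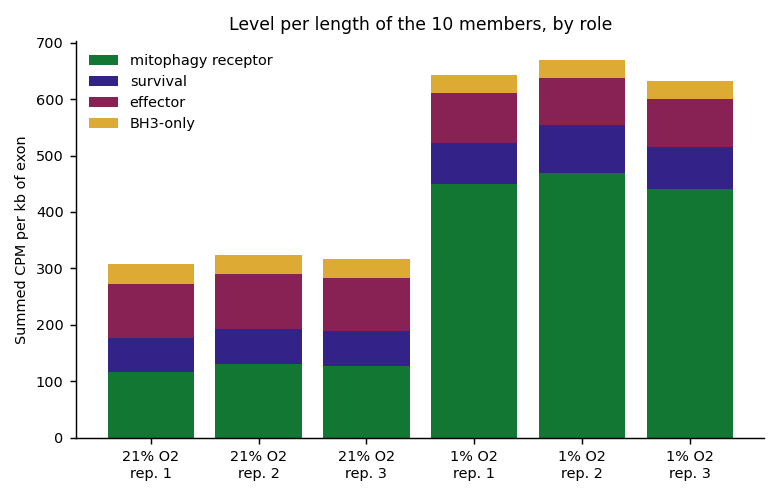
Summed CPM per kb of exon of the 10 members in each sample, stacked by role. The totals are 308 to 324 in the normoxic samples and 632 to 670 in the hypoxic samples, and the mitophagy receptors account for most of the difference.

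Ratios within a sample do not depend on library scaling. The log2 ratio of Bax to Bcl2 was 5.09, 5.33 and 5.11 in normoxia and 5.54, 5.45 and 5.75 in hypoxia, and the groups did not overlap (difference 0.40, exact permutation p = 0.1). Bax to Bcl2l1 was 2.69, 2.64 and 2.62 in normoxia and 2.79, 2.49 and 2.74 in hypoxia, and overlapped (difference 0.02, exact permutation p = 0.9). The ratio of the summed BH3-only members to the summed survival members was -0.78, -0.86 and -0.90 in normoxia and -1.14, -1.40 and -1.26 in hypoxia. It was lower in all hypoxic samples (difference -0.42, exact permutation p = 0.1), and Mcl1, higher in hypoxia, is the largest term of its denominator, as Bad, lower in hypoxia, is of its numerator. These ratios of RNA point different ways for different partners and carry no reading of cell death.

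**Figure D4:**
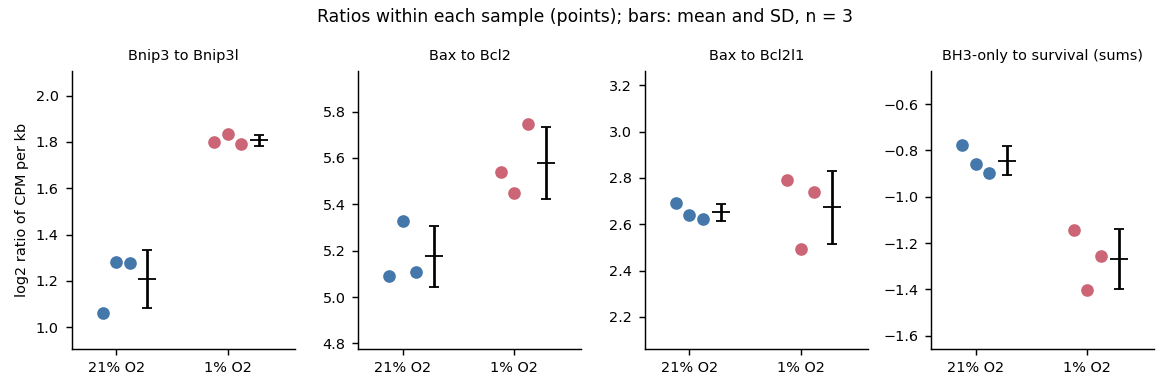
Log2 ratios of CPM per kb of exon within each sample (points; each panel spans 1.2 log2 units), with the mean and SD of 3 samples per group as bars. The groups separate for Bnip3 to Bnip3l, Bax to Bcl2 and the BH3-only to survival sums, and overlap for Bax to Bcl2l1.

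Other BCL2 family genes were measured for comparison, and 12 of 19 passed the filter on low counts. Of the 12, 1 rose (8.33%) and 2 fell (16.7%), beside 18.9% and 15.3% of all tested genes. The median log2 fold change of the 12 was -0.24. Bok, a BAX-related gene, fell from 16.9 ± 0.557 to 8.25 ± 0.554 CPM (log2 fold change -1.04, adjusted p = 1.09e-05). Bid, whose product links death receptors to mitochondria, fell by 0.79 on the log2 scale, and Bnip1, a SNARE protein gene of the endoplasmic reticulum, rose by 0.64. Without normoxic replicate 3, Bnip1 was at 0.57 and not called. Bid shares 628 bp of antisense exon with Bcl2l13. Bak1, the partner effector of BAX, was at -0.39, and the survival gene Bcl2l2 at 0.54, neither past 1.5-fold and both chosen after their values were seen.

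Of 22 other mitophagy receptors, adaptors and regulators, 0 rose by edgeR's call and 1 fell, Nipsnap1 (-0.72), an outer-surface tag of damaged mitochondria that was at 2.94 ± 0.297 and 1.78 ± 0.306 CPM. The called shares were 0% and 4.55%, beside 18.9% and 15.3% of all tested genes. The median of the list was 0.03. By adjusted p alone 7 were higher and 4 lower, beside 31.8% and 31.0% of all genes. At an unadjusted p under 0.05 7 were higher, and DESeq2 and limma-voom called 0 higher. Fundc1, the other receptor tied to hypoxia, was at -0.06 and Pink1, the kinase that marks depolarized mitochondria, at 0.22, both chosen after their values were seen. Of 33 autophagosome genes (median 0.18), 3 rose (9.09%) and 2 fell (6.06%), both under the shares of all tested genes (18.9% and 15.3%). By adjusted p alone 16 were higher and 8 lower, beside 31.8% and 31.0% of all genes. Those that rose were the initiating kinase gene Ulk1 (1.02, from 97.5 ± 3.02 to 198 ± 0.715 CPM), the lipid transfer gene Atg2b (0.89) and the ULK1 partner Rb1cc1 (0.59). Rb1cc1 lost its call without normoxic replicate 2 (0.56) or hypoxic replicate 3 (0.57) and under other scalings. Those that fell were Lamp1 (-0.78), a lysosomal membrane protein, and the LC3-conjugating enzyme gene Atg3 (-0.69).

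Of 21 genes of the apoptosome, the caspases and their inhibitors (median 0.09), 3 rose (14.3%) and 5 fell (23.8%), beside 18.9% and 15.3% of all tested genes. The inhibitor-of-apoptosis genes Birc3 (1.58, from 17.2 ± 0.456 to 51.4 ± 2.76 CPM) and Birc2 (0.94) rose, as did the DNase gene Dffb (0.86). Cycs, the cytochrome c gene, fell from 62.3 ± 9.27 to 28.2 ± 0.532 CPM, and Birc5 fell by 1.93 on the log2 scale. BIRC5 (survivin) also acts in mitosis. Of 16 genes of mitochondrial channels, fission and fusion (median -0.12), 2 rose and 2 fell (12.5% each), beside 18.9% and 15.3% of all tested genes. The outer-membrane channel gene Vdac1 (1.25) and the fission factor Mief1 (0.63) rose, and the ADP/ATP carriers Slc25a5 (-1.24) and Slc25a4 (-0.74) fell. Mief1 was not called without hypoxic replicate 2 (0.58) or with an offset for exon length (0.57).

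Of 21 tested regulators of these genes (median 0.17), 5 rose (23.8%) and 1 fell (4.76%), beside 18.9% and 15.3% of all tested genes. The RNA of Nfkb1 (1.52), Foxo3 (0.74) and Rela (0.74), all transcription factor genes, rose and that of Epas1, which encodes HIF-2 alpha, fell by 1.04 on the log2 scale. Hif1a was at 0.42, under the fold threshold. HIF proteins are controlled mainly by oxygen-dependent degradation, so their RNA does not give their activity. Of 15 tested p53 target genes, apart from the members (median -0.33), 3 rose (20.0%) and 4 fell (26.7%), beside the same shares of all genes. The death receptor gene Fas (1.03), the p53 ligase gene Mdm2 (0.61) and the cell cycle inhibitor gene Cdkn1a (0.61) rose, and Gdf15 (-1.38), Btg2 (-0.86) and Phlda3 (-0.80) fell. Trp53 itself was at 0.21. Cdkn1a lost its call without normoxic replicate 2 or hypoxic replicate 2, with upper-quartile factors and with no filter on low counts (0.58 each). Mdm2 lost its call without hypoxic replicate 2 (0.58) and with an offset for exon length (0.56).

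**Figure D5:**
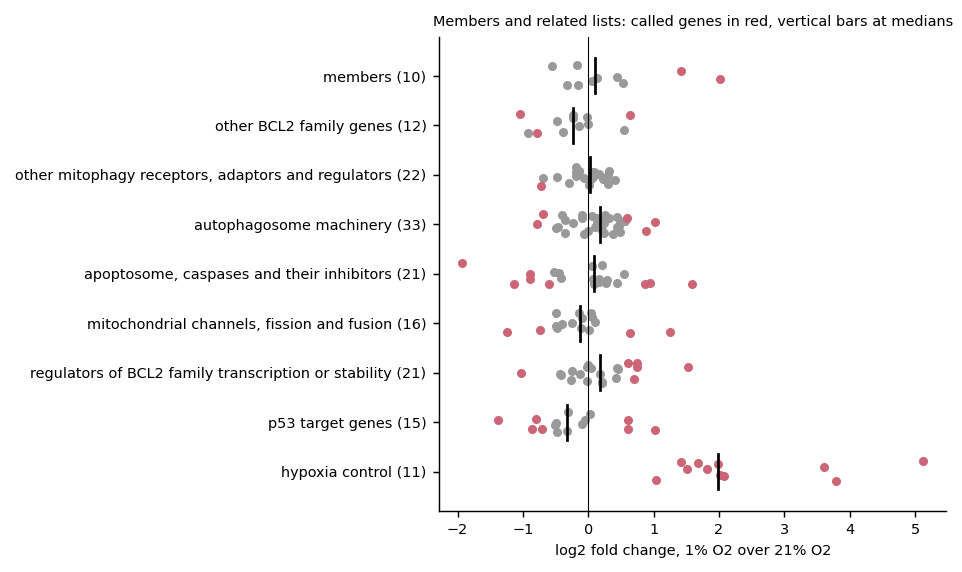
Log2 fold change of each tested gene in the members and 8 related lists (number tested in brackets), with called genes in red and a vertical bar at each median. The hypoxia control genes have a median of 1.98, while the medians of the members and the other lists lie between -0.33 and 0.18. Single control genes lie at 1.03 to 5.13, a range that single genes outside that list also reach, among them Bnip3 (2.01) and Birc3 (1.58).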

How the data were processed

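RNA of 3 normoxic and 3 hypoxic PSC cocultures was compared, with groups and replicate numbers taken from the sample labels. The authors prepared poly(A) libraries, trimmed adapters, aligned reads to GRCm38 (STAR 2.6.1b) and estimated gene totals (RSEM 1.3.1). They deposited expected counts per gene, which the authors had not normalized between samples, and 0 of the values had a fraction. RSEM divides reads between near-identical genes by an estimate.

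From these counts, edgeR 4.0.16 (R 4.3.3) was run with filterByExpr, TMM scaling and quasi-likelihood F tests, p-values were adjusted over 16207 genes by the Benjamini-Hochberg method, and the calling thresholds (1.5-fold, adjusted p 0.05) follow the methods of the study. The standard error is the size of the log2 fold change over the square root of F. Log2 CPM for pattern distances used a prior count of 2. CPM per kb divide by the union of a gene's exons in GENCODE M21, in which 55240 of the identifiers were found. A further 5 transgene rows held 0 counts. Ratios were compared by exact two-sided permutation tests (scipy 1.17.1). Promoters came from RefSeq (GRCm38.p6).

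The members and lists were chosen with earlier results of these data known. Named list genes are up to 3 called genes with the highest and up to 3 with the lowest fold change at a mean of at least 1 CPM, of which 1 is not reported here. Alternatives were DESeq2 1.42.0, limma-voom (limma 3.58.1), a replicate block, other scalings and filters, offsets for GC content and exon length, and each sample left out. The fits were tested on simulated data. Sequencing depth per sample is given with the results.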

Additional observations from a re-analysis of the deposited data

How the results depend on the processing

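Bnip3 and Bnip3l were called in all 16 alternative fits, at log2 fold changes of 1.94 to 2.10 and 1.39 to 1.43. The count of members called lower, 0 in the main analysis, was 1 with an offset for exon length, ran from 0 to 1 when single samples were left out (the 1 being Bcl2 each time), and was 3 by adjusted p alone. The members called higher, 2 in the main analysis, were 3 without normoxic replicate 1, where Pmaip1 was added, and 3 by adjusted p alone, where Mcl1 was added. Over all tested genes, adjusted p alone called 5150 higher and 5018 lower, and a fold of 2 called 1929 higher and 1227 lower, against 3068 and 2479. Bbc3, which was not called, turned to -0.0384 with an offset for GC content and to -0.0304 without normoxic replicate 3, with leave-one-out values up to 0.169. Without division by length, the ratio of BH3-only to survival sums differed by -0.305 on the log2 scale in place of -0.42. Left-out samples moved it between -0.484 and -0.355, Bax to Bcl2 between 0.318 and 0.479, and Bax to Bcl2l1 between -0.036 and 0.112. The count of other mitophagy genes that fell was 2 in place of 1 in 7 alternatives, the replicate block among them. Among single genes of the lists, 16 of 512 alternative values lost the call, and no scaling moved the median of all genes by over 0.0346 on the log2 scale.

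Both groups carry the numbers 1 to 3. The sources do not say that same-numbered samples were paired, so the numbers were not taken as pairs. Deviations from the group means of same-numbered samples correlated at 0.142, 0.139 and 0.0378 across genes. Those of samples with different numbers correlated at -0.135 to 0.00252. Each sample thus correlated best with its own number, a hint of pairing from the data and not the design. With a replicate block, 2 members were called higher and 0 lower, and 3072 and 2500 of all genes. Under the block the adjusted p was 0.0273 for Pmaip1 (0.00734 to 0.145 over its alternatives) and 0.0293 for Bcl2l1 (0.00667 to 0.183), neither past 1.5-fold.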

Other observations

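Bcl2a1b, a survival gene of the BCL2 family best known from blood cells, was at 7.53 ± 2.66 CPM in normoxia and 6.35 ± 2.53 CPM in hypoxia (SD, n = 3; log2 fold change -0.24, adjusted p = 0.532) and was chosen after its values were seen. Within each group its samples had the same order as the immune marker sum, with replicate 2 highest and replicate 1 lowest. Near-identical copies of this gene exist, so its value is uncertain. Krt19, a keratin gene used as an epithelial marker, rose from 0.715 ± 0.298 to 22.1 ± 1.66 CPM (log2 fold change 4.94, adjusted p = 1.3e-07). Of the other epithelial markers, Sox9 was called higher (1.07, adjusted p = 1.49e-06). Muc1 (0.58, adjusted p = 0.0293) and Krt7 (-0.23, adjusted p = 0.71) were not called, and Epcam, Krt8, Krt18 and Cdh1 were too low to be tested.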
